A study of Mus musculus with 18 samples.

Results

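The 10 genes followed belong to the lysosomal protease system and comprise 9 cathepsins (Ctsa, Ctsb, Ctsc, Ctsd, Ctsh, Ctsk, Ctsl, Ctss and Ctsz) and Cst3, which encodes cystatin C. They were found by symbol among the 38887 genes measured in each library, and each of the 10 matched a single identifier. The RNA-Seq data came from 18 libraries of murine bone marrow-derived macrophages (BMMs), with 3 libraries in each of 6 groups. BMMs were grown from the marrow of adult female C57BL/6J mice for 6 days with 50 ng/ml M-CSF and were left untreated or given 100 ng/ml LPS for 4 h. Mice expressing Cre from the Lyz2 locus, the lysozyme gene of myeloid cells, served as WT. GILZ KO mice carried in addition a loxP-flanked exon 6 of Tsc22d3, the gene of the glucocorticoid-induced leucine zipper (GILZ). GILZ TG mice carried in addition a Gilz-1 cDNA in the ROSA26 locus behind a loxP-flanked stop cassette. Deletion and overexpression thus depended on Cre in the cells themselves. Each library came from one preparation. The labels do not say whether an untreated and an LPS library of one number shared a mouse or a preparation.

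Cathepsins are proteases that are made as inactive precursors, carried to the lysosome largely by mannose 6-phosphate receptors and activated there in acid. CTSD is an aspartic protease, CTSA a serine carboxypeptidase that also stabilizes neuraminidase 1 and beta-galactosidase, and the other 7 are papain-like cysteine proteases. Macrophages use them to degrade what they have engulfed, to trim the invariant chain of MHC class II and to cleave endosomal Toll-like receptors. Cystatin C is a secreted inhibitor of cysteine cathepsins.

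Reads on genes numbered between 14583055 and 38557029 per library, and the 10 members together took 1.98 to 2.92% of them. The targeted gene followed the labels. Tsc22d3 had 14.9 to 18.8 TPM (a share of all transcripts of the library, corrected for transcript length) in untreated WT, 1.89 to 2.81 TPM in GILZ KO and 152 to 160 TPM in GILZ TG. After LPS the respective ranges were 4.56 to 5.81, 2.50 to 3.28 and 127 to 141 TPM. Lyz2 ranged from 11048 to 15401 TPM in untreated WT against at most 53.1 TPM in untreated GILZ KO and GILZ TG, although all 3 genotypes are described as carrying Cre at this locus. Its part in the comparisons with WT was not tested. The macrophage markers (Adgre1, Csf1r, Cd68, Itgam, Mertk, Fcgr1 and Cd14) summed to between 3825 and 5021 TPM in all libraries, and none of the 7 was at 0 in any library. Replicates 1 and 2 of GILZ TG stood apart in both treatments by their stromal, neutrophil and B-lineage markers. For the members called between GILZ KO and GILZ TG, values with replicate 3 as the single GILZ TG library are also given.

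The cathepsin transcripts of untreated WT BMMs spanned from some of the most abundant messages of the cell to a trace. Ctsd had 7713, 7041 and 6724 TPM in the 3 libraries and ranked number 8 of all genes. Ctsb, which acts both as an endopeptidase and as a carboxydipeptidase, had 4579, 4138 and 3761 TPM, and Ctsl, a strong endopeptidase, had 4264, 4116 and 3904 TPM. The ranges of Ctsb and Ctsl overlapped, so their order was not resolved, while Ctsd lay above both in each library. Ctss, the cathepsin that stays active at neutral pH, followed with 1774, 1672 and 1597 TPM. Then came Cst3 with 1277, 1237 and 1301 TPM and Ctsz, a carboxypeptidase, with 1044, 1057 and 1075 TPM. Ctsa lay lower, at 677, 614 and 560 TPM. Ctsc, the dipeptidyl peptidase that activates granule serine proteases, had 114, 136 and 151 TPM, and Ctsh, an aminopeptidase, had 116, 97.7 and 99.8 TPM, again with overlapping ranges. Ctsk, the collagen-degrading enzyme of osteoclasts, was at 3.14, 3.78 and 4.43 TPM, from 73 to 92 reads per library.

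**Figure D1:**
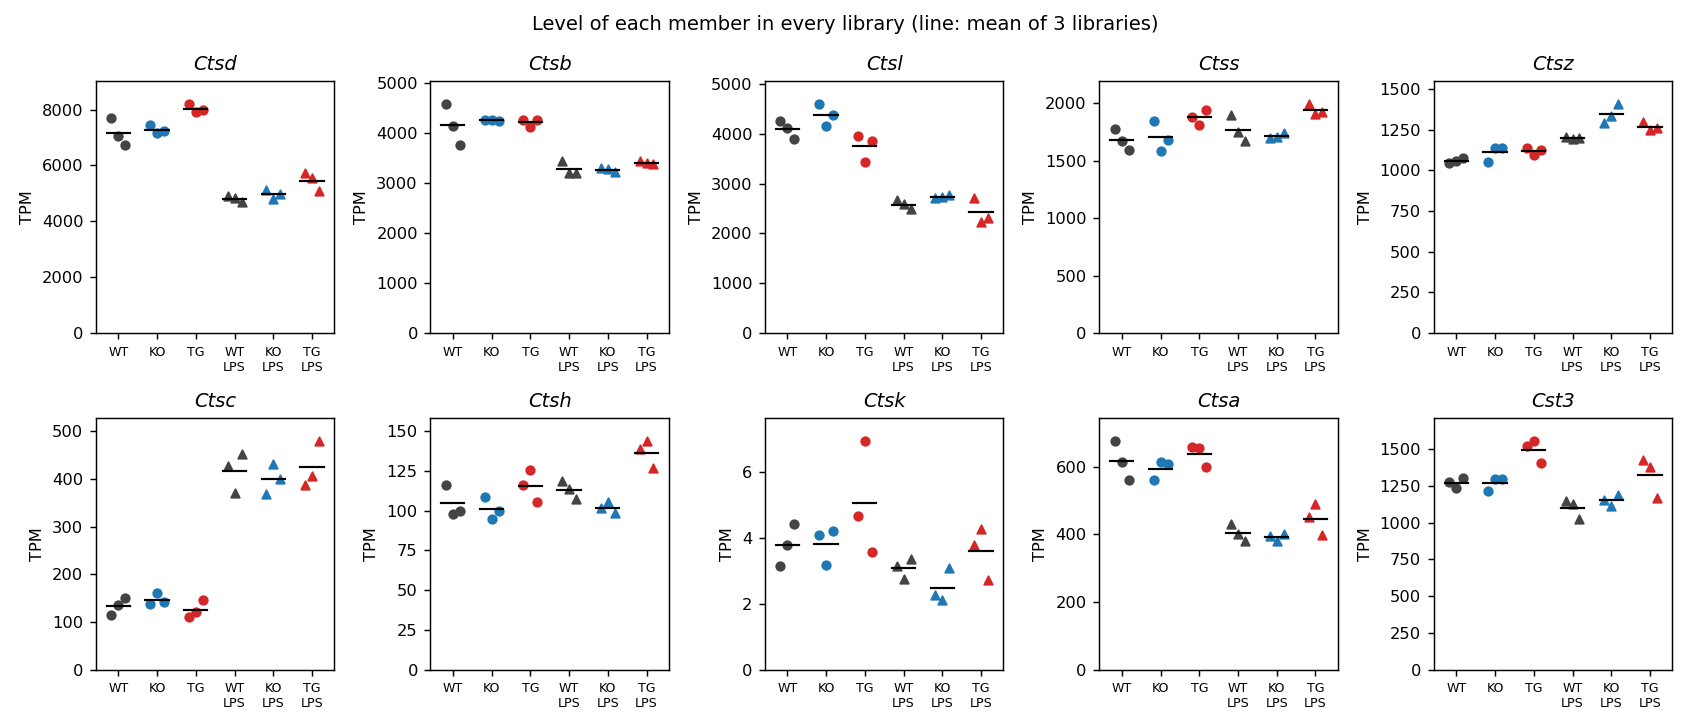
Level of each of the 10 members in TPM (y axis, from 0) in the 6 groups (x axis; KO and TG stand for GILZ KO and GILZ TG, circles for untreated and triangles for LPS), 1 point per library and a line at the mean of 3. Ctsc is the member whose LPS libraries, at 369 TPM or more, all lie well above the untreated ones, at 161 TPM or less, while Ctsd, Ctsl, Ctsa and Ctsb lie lower after LPS on this scale.

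What LPS did to the members depended on the scale of the values. TPM is a share of the library total, and after LPS the median of all 13169 genes tested fell by 0.51 to 0.52 on the log2(TPM + 1) scale, while chemokine messages such as Cxcl10 (14017 TPM), Ccl3 (10325 TPM) and Ccl2 (8808 TPM) stood among the 6 most abundant genes of WT after LPS. The count fits, scaled by TMM (a scaling that takes the typical gene as unchanged), put that median at -0.02 and so describe each member relative to the typical gene. Whether total RNA per cell changed is not known from these data. On TMM-scaled counts 4415 genes were called higher and 4622 lower in WT at an adjusted p under 0.05 (edgeR's quasi-likelihood test with Benjamini-Hochberg adjustment), against 2114 and 8556 with limma on TPM.

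Relative to the typical gene, LPS raised 6 of 10 members in WT, 6 in GILZ KO and 7 in GILZ TG and lowered 0 of 10 in each genotype (edgeR). Genes called higher made up 33.5, 33.2 and 33.6% of all genes tested in WT, GILZ KO and GILZ TG, and genes called lower 35.1, 35.4 and 35.1%. Per TPM the picture was another one, with 2 of 10 members higher and 5 lower in WT, 2 and 5 in GILZ KO and 3 and 5 in GILZ TG (limma). There the shares of all genes were 16.1, 15.3 and 15.6% higher and 65, 66.1 and 65.2% lower. At an unadjusted p under 0.05 the edgeR counts were again 6, 6 and 7 with 0 lower, and DESeq2 called 6, 8 and 8 members higher and 0 lower, adding Ctsa and Ctsd in GILZ KO and Ctsd in GILZ TG.

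Ctsc rose on both scales and in all 3 genotypes. In WT it went from 114, 136 and 151 TPM to 428, 371 and 452 TPM, in GILZ KO from 138, 161 and 142 to 369, 433 and 400 TPM, and in GILZ TG from 111, 121 and 145 to 388, 407 and 481 TPM. No untreated library reached the lowest LPS library. The log2 fold change on counts was 2.29 ± 0.15 (SE) in WT, 2.20 ± 0.15 in GILZ KO and 2.49 ± 0.16 in GILZ TG, with adjusted p-values of 5.73e-10, 1.04e-09 and 2.03e-10 (edgeR), and 1.64, 1.44 and 1.75 on log2(TPM + 1). Among all genes tested, 7.28, 7.4 and 6.23% had a higher fold change.

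Ctsz was the other member that rose on both scales throughout. Its levels went from 1044, 1057 and 1075 TPM to 1205, 1192 and 1201 TPM in WT, and from 1051, 1141 and 1139 to 1291, 1337 and 1409 TPM in GILZ KO. In GILZ TG they went from 1138, 1096 and 1123 to 1296, 1249 and 1260 TPM. The ranges did not overlap in any genotype. The log2 fold changes were 0.81 ± 0.06, 0.92 ± 0.06 and 0.81 ± 0.06 on counts, and 0.18, 0.28 and 0.18 on log2(TPM + 1).

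Ctsh and Ctss, a pair of enzymes of the endosomal pathway, rose relative to the typical gene but, with 1 exception, were not called per TPM. Ctss had 1774, 1672 and 1597 TPM before and 1897, 1748 and 1673 TPM after LPS in WT, with overlapping ranges. In GILZ KO it had 1849, 1586 and 1680 against 1699, 1706 and 1740 TPM, and in GILZ TG 1879, 1814 and 1941 against 1996, 1905 and 1930 TPM. Its log2 fold changes on counts were 0.71 ± 0.07, 0.65 ± 0.07 and 0.68 ± 0.07, whereas on log2(TPM + 1) they were 0.08, 0.01 and 0.05 and not called. Ctsh showed the same contrast, with 0.73 ± 0.07, 0.72 ± 0.07 and 0.86 ± 0.07 on counts and 0.12, 0.01 and 0.24 on log2(TPM + 1), of which the value in GILZ TG was called (adjusted p 0.0115, limma).

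For Cst3 and Ctsb the direction itself depended on the scale. Cst3 had 1277, 1237 and 1301 TPM in untreated WT and 1147, 1125 and 1028 TPM after LPS, a fall of 0.21 on the log2(TPM + 1) scale, against a rise of 0.43 ± 0.07 relative to the typical gene. Both values were called in WT. Ctsb went from 4579, 4138 and 3761 to 3446, 3202 and 3192 TPM, a log2(TPM + 1) change of -0.34 against 0.29 ± 0.06 on counts. In GILZ KO and GILZ TG the count fits gave 0.50 ± 0.07 and 0.45 ± 0.07 for Cst3, and 0.26 ± 0.06 and 0.33 ± 0.06 for Ctsb, again with negative values per TPM. Of those negative values, that of Cst3 in GILZ KO (-0.14) was not called.

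Ctsd, Ctsl and Ctsa fell per TPM but were not called in WT relative to the typical gene. Ctsd went from 7713, 7041 and 6724 TPM to 4917, 4839 and 4675 TPM in WT. Ctsl went from 4264, 4116 and 3904 to 2666, 2585 and 2489 TPM, and Ctsa from 677, 614 and 560 to 430, 400 and 381 TPM. The LPS libraries of all 3 genes lay below the untreated ones in WT. The WT log2 fold changes were -0.57, -0.67 and -0.61 on log2(TPM + 1), all called, but 0.05 ± 0.05, -0.03 ± 0.08 and 0.09 ± 0.07 on counts, none of them called. Ctsa was called on counts in GILZ TG (0.21 ± 0.07, adjusted p 0.0135, edgeR), though not without the filter on low counts (0.0669) or with only its 6 libraries (0.0713). In GILZ KO it was not called (0.13 ± 0.07, adjusted p 0.111), except with DESeq2 (0.0399) and with the preparation as a replicate block (0.0174). Its response in GILZ TG was not called different from that in WT (difference 0.12 ± 0.10 on the log2 scale). Ctsk was not called on counts, with 24 to 117 reads per library after LPS, and per TPM it was called lower in GILZ KO (-0.48).

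**Figure D2:**
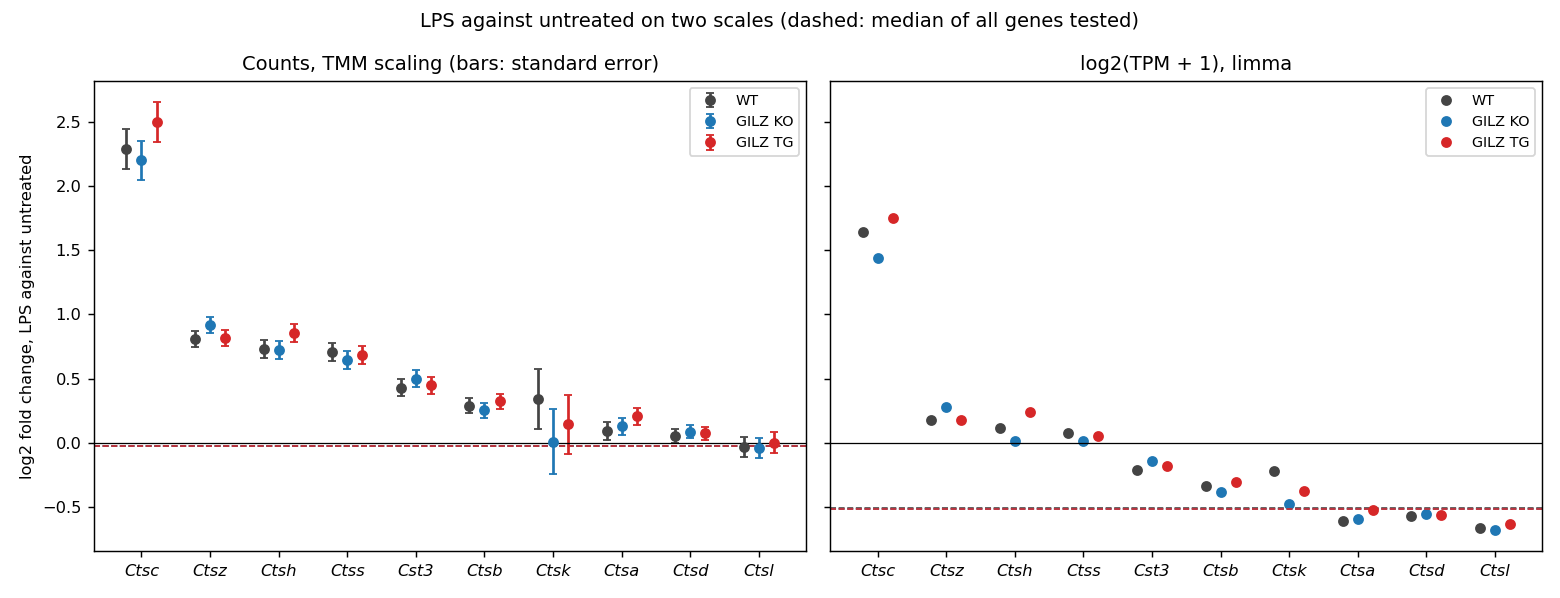
Log2 fold change of LPS against untreated for each member (x axis) in WT, GILZ KO and GILZ TG, on TMM-scaled counts with the standard error (left) and on log2(TPM + 1) (right). Dashed lines give the median of all genes tested, which lies near 0 on the left and near -0.51 on the right, and in WT the order of the members from Ctsc down to Ctsl is the same on both sides except for Ctsa and Ctsd.

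The make-up of the pool does not depend on the scaling. Of the summed TPM of the 9 cathepsins, Ctsd took 37.3 to 38.0% in untreated WT and 32.5 to 33.5% after LPS. The share of Ctsl went from 21.0 to 21.8% before to 17.6 to 17.9% after. Ctss, Ctsz and Ctsc gained, Ctss from between 8.75 and 8.94% to between 11.8 and 12.6%, Ctsz from between 5.14 and 6.01% to between 7.97 and 8.48%, and Ctsc from between 0.562 and 0.842% to between 2.57 and 3.19%. The share of Ctsb overlapped, with 21.0 to 22.6% before and 22.2 to 22.8% after. The summed TPM of the pool in WT fell from between 17880 and 20290 TPM to between 14170 and 15110 TPM. Unlike the shares, this total depends on the scaling. On TMM-scaled counts 6 of 10 members were called higher and 0 lower in WT (edgeR). The shares and sums are descriptions without a test.

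**Figure D3:**
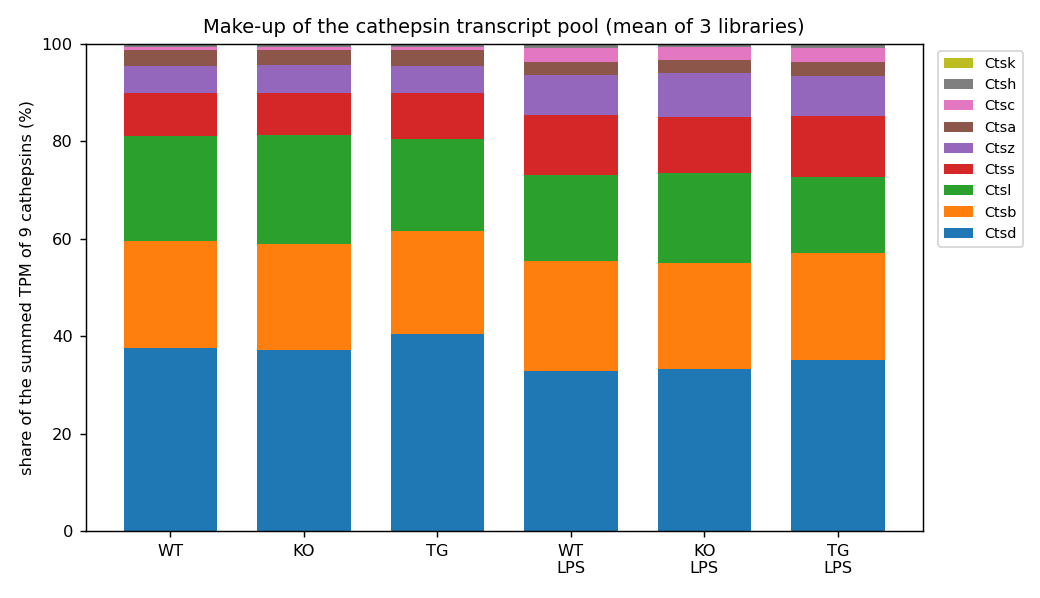
Mean share of each of the 9 cathepsins in their summed TPM (y axis, percent) in the 6 groups (x axis), 3 libraries each. The Ctsd and Ctsl segments are narrower and the Ctss, Ctsz and Ctsc segments wider after LPS in each genotype.

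Of the 10 members 8 had a promoter sequence in RefSeq on GRCm38.p6, from 250 bases before to 50 bases after a start site. Ctsb and Ctsh are named only. The windows were searched on both strands for the E-box CACGTG, which MiT/TFE factors bind, the interferon regulatory factor core AANNGAAA, the PU.1-type core GAGGAA and the AP-1 core TGANTCA. Of 32817 mouse promoters of the same length, 7.1% held CACGTG, 23.9% AANNGAAA, 28.3% GAGGAA and 7.8% TGANTCA. Shown are Ctsd and Ctsa (the second of its start sites), which were not called in WT on counts after LPS, and Ctss and Ctsc, which rose, with matches in capitals. The shown Ctsa window lies inside the annotated gene span, whereas the Ctsa window not shown covers the annotated start.
Ctsd, chr7:142387778-142388077, - strand: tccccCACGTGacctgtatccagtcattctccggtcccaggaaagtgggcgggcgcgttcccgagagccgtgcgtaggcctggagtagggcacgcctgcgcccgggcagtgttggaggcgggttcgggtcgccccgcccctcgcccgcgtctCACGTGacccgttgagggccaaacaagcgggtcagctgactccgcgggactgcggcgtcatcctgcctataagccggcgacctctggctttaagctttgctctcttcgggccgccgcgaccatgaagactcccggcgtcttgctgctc
Ctsa, chr2:164833523-164833822, + strand: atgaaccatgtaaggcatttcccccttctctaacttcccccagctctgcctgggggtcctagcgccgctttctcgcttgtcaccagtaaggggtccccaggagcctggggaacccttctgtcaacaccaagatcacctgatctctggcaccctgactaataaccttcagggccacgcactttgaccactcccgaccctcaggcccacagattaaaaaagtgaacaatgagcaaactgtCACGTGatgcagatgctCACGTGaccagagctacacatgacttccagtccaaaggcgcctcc
Ctss, chr3:95526536-95526835, + strand: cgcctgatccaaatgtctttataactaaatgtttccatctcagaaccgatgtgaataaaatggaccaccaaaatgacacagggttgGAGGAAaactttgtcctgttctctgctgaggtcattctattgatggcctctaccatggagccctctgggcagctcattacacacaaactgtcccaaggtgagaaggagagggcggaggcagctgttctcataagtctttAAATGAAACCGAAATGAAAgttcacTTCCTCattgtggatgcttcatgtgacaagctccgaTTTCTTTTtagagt
Ctsc, chr7:88277835-88278134, + strand: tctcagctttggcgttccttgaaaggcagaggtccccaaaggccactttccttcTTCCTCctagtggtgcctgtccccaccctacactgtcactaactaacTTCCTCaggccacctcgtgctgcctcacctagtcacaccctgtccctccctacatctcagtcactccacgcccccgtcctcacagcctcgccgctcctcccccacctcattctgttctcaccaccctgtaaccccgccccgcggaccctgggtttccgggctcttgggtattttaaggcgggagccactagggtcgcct
The Ctsd and Ctsa windows held 2 CACGTG matches each. Ctss held 4 matches of AANNGAAA, of which 3 overlapped from one to the next just before the start site, and 2 of GAGGAA. Ctsc held 2 matches of GAGGAA, read on the opposite strand. Of the windows not shown, that of Ctsl had 1 CACGTG and 2 AANNGAAA matches, that of Ctsk 2 of GAGGAA and that of Cst3 1 each of AANNGAAA and GAGGAA, while the other Ctsa window and that of Ctsz had none of the 4 motifs. Among these, Ctsl was not called in WT on counts and Ctsz rose, so the shown windows do not stand for all members. A match is only a run of letters here, and binding was not measured.

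Among the genes around the cathepsins, the transcription factors that bind such E-boxes changed in opposite directions with LPS. Tfeb, a main regulator of lysosomal genes, fell in WT from 29.3, 28.6 and 27.5 TPM to 4.05, 3.17 and 4.61 TPM (log2 fold change -2.32 on counts), while Mitf rose from 31.2, 30.5 and 27.1 to 81.5, 70.5 and 84.8 TPM (1.99) and Tfec from 23.0, 28.0 and 27.2 to 94.5, 95.4 and 91.1 TPM (2.48). All 3 kept that direction per TPM. Tfe3 changed by 0.28 on counts and by -0.38 per TPM. Of the 4 factors 3 were called higher and 1 lower in each genotype on counts, 2 and 2 per TPM. The shares of all genes were 33.2 to 33.6% higher and 35.1 to 35.4% lower on counts, and 15.3 to 16.1% and 65 to 66.1% per TPM.

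Of 9 cathepsin substrates and users in antigen and receptor processing, 6 rose in WT, 9 in GILZ KO and 7 in GILZ TG and 0 fell on counts, with median log2 fold changes of 1.04, 1.19 and 0.94 against -0.02 over all genes. Per TPM 5, 5 and 3 of them were called higher and 1 lower in each genotype. In WT the endosomal receptors Tlr7 (2.21 on counts, 1.64 per TPM) and Tlr9 (2.15 and 1.27) and the class II gene H2-Ab1 (1.66 and 0.84) led. Of the partner and processing enzymes 5, 5 and 6 of 9 were called higher and 1 lower on counts, but 0 higher and 8, 9 and 8 lower per TPM. Beside both lists, 33.2 to 33.6% of all genes tested were called higher and 35.1 to 35.4% lower on counts. Per TPM it was 15.3 to 16.1% higher and 65 to 66.1% lower. The carboxypeptidase Scpep1 (0.58 on counts and -0.06 per TPM), the asparaginyl endopeptidase Lgmn (0.24 and -0.39) and Glb1, the beta-galactosidase (0.24 and -0.39), stood highest in WT, and Neu1, the neuraminidase held by CTSA, was lower on both scales (-0.29 and -0.87).

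The mannose 6-phosphate receptor M6pr (0.88 on counts, 0.25 per TPM) and Scarb2, the receptor of glucocerebrosidase (0.84 and 0.20), rose in WT on both scales, followed on counts by the adaptor Gga1 (0.51 and -0.12). Gga2 (-0.57 and -1.14), Sort1 (-0.37 and -0.92) and Gga3 (-0.25 and -0.91) fell in WT. Of the 11 genes of this sorting list 4, 3 and 6 were called higher and 3, 4 and 2 lower on counts in WT, GILZ KO and GILZ TG, and 2, 1 and 2 higher and 8, 9 and 7 lower per TPM. Over all genes tested the shares were 33.2 to 33.6% higher and 35.1 to 35.4% lower on counts, and 15.3 to 16.1% and 65 to 66.1% per TPM. Beside Cst3, the inhibitors Cst7, a cystatin of endolysosomes that acts on CTSC (2.70 on counts, 1.96 per TPM), and Cstb, the cytosolic stefin (0.37 and -0.26), were the 2 of 16 other cystatins and stefins with a gene in the data that passed the filter on low counts. Of the 14 other cathepsins 3 passed it, and Ctso was called (0.55 on counts, -0.06 per TPM). All 10 LPS check genes rose in each genotype on both scales, with Nos2 (11.9), Il6 (11.53) and Ccl5 (11.05) leading in WT on counts.

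The LPS response of the members was not called different between genotypes. In the interaction tests 0 of 10 members passed for GILZ KO minus WT, where 0.0152% of all genes did, 0 for GILZ TG minus WT (0.00759% of all genes) and 0 for GILZ KO minus GILZ TG (0.121%). No member had an unadjusted p under 0.05 in these edgeR tests, and DESeq2 and limma also called 0. Apart from the sparse Ctsk, the largest values were those of Ctsc, with 0.21 ± 0.21 for GILZ TG minus WT and -0.30 ± 0.21 for GILZ KO minus GILZ TG on the log2 scale.

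No member was called between GILZ KO and WT. In untreated GILZ KO against WT 0 of 10 members were called by edgeR, at a share of 0.0951% of all 12621 genes tested, with log2 fold changes from -0.08 (Ctsa) to 0.06 (Ctsl). No member had an unadjusted p under 0.05, and DESeq2 and limma called 0. After LPS 0 of 10 were called as well, at 0.0822% of 12164 genes, with 1 unadjusted p under 0.05 and 0 calls by DESeq2 and limma. That 1 member was Ctsz, which had 1291, 1337 and 1409 TPM in GILZ KO and 1205, 1192 and 1201 TPM in WT without overlap, for a log2 fold change of 0.16 ± 0.07 (adjusted p 0.516).

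Small differences between GILZ TG and WT did not pass the threshold. Of 10 members 0 were called in untreated GILZ TG against WT (0.642% of all genes), 5 had an unadjusted p under 0.05, DESeq2 called Ctsd and Cst3, and limma called 0. Cst3 had 1523, 1558 and 1405 TPM in GILZ TG, all above the WT range of 1237 to 1301 TPM, with a log2 fold change of 0.22 ± 0.05 (adjusted p 0.116). Ctsd had 8204, 7930 and 7974 TPM, above the WT range of 6724 to 7713 TPM (0.16 ± 0.04, adjusted p 0.132). The values were 0.22 ± 0.07 for Ctsh, 0.15 ± 0.06 for Ctss and -0.13 ± 0.06 for Ctsl. After LPS 0 of 10 were called (0.46% of all genes), 3 had an unadjusted p under 0.05, DESeq2 called Ctsh and limma 0. Without GILZ TG replicate 3, edgeR called Cst3 and Ctsh in each treatment, but calls over all genes rose as well, from 81 of 12621 to 665 of 12893 untreated and from 56 of 12164 to 1067 of 12524 after LPS. Ctsh came closest, with 139, 144 and 127 TPM in GILZ TG against 119, 114 and 107 TPM in WT, no overlap and a log2 fold change of 0.35 ± 0.07 (adjusted p 0.0629).

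The calls lay between GILZ KO and GILZ TG. Between the untreated libraries of GILZ KO and GILZ TG 2 of 10 members were called, both lower in GILZ KO, at a share of 4.94% called among all genes. Cst3 had 1218, 1295 and 1295 TPM in GILZ KO and 1523, 1558 and 1405 TPM in GILZ TG. The groups did not overlap, and the log2 fold change was -0.27 ± 0.05 (adjusted p 0.0250, edgeR). Ctsd had 7459, 7150 and 7239 TPM in GILZ KO against 8204, 7930 and 7974 TPM in GILZ TG, again without overlap (-0.19 ± 0.04, adjusted p 0.0346). Cst3 was thus 1.21-fold and Ctsd 1.14-fold higher in GILZ TG. Per TPM neither was called (adjusted p 0.0588 for Cst3 and 0.254 for Ctsd, limma on log2(TPM + 1)), and 0 of 10 members were. Ctsd was also not called without the filter on low counts (adjusted p 0.141, edgeR) or with all 18 libraries in one fit (0.0616), whereas Cst3 was called in both (0.0218 and 0.0378). The median over the 10 members was -0.15, against 0.00 over all genes tested. Ctsh was next with -0.29 ± 0.07 (adjusted p 0.0509), and its TPM ranges of 95.0 to 109 and 106 to 125 overlapped. Ctsl had the opposite sign, with 4602, 4164 and 4372 TPM in GILZ KO above the 3967, 3441 and 3854 TPM of GILZ TG, at 0.19 ± 0.06 (adjusted p 0.0844). For Cst3 and Ctsd untreated GILZ KO lay near WT, at -0.05 ± 0.05 and -0.03 ± 0.04. The larger values were those of GILZ TG against WT, at 0.22 ± 0.05 and 0.16 ± 0.04, which were not called.

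After LPS 1 of 10 members was called between GILZ KO and GILZ TG, where 2.6% of all genes were. It was Ctsh, which had 102, 106 and 98.3 TPM in GILZ KO and 139, 144 and 127 TPM in GILZ TG without overlap, a log2 fold change of -0.40 ± 0.07 (adjusted p 0.0162, edgeR, and 0.0210 with limma on log2(TPM + 1)). Cst3 had 1152, 1114 and 1191 TPM in GILZ KO and 1428, 1376 and 1169 TPM in GILZ TG, where replicate 3 of GILZ TG lay within the GILZ KO range (-0.20 ± 0.08, adjusted p 0.215). Ctsd was at -0.15 ± 0.07 (adjusted p 0.265). Ctss had 1699, 1706 and 1740 TPM against 1996, 1905 and 1930 TPM without overlap, at -0.19 ± 0.07 (adjusted p 0.198).

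**Figure D4:**
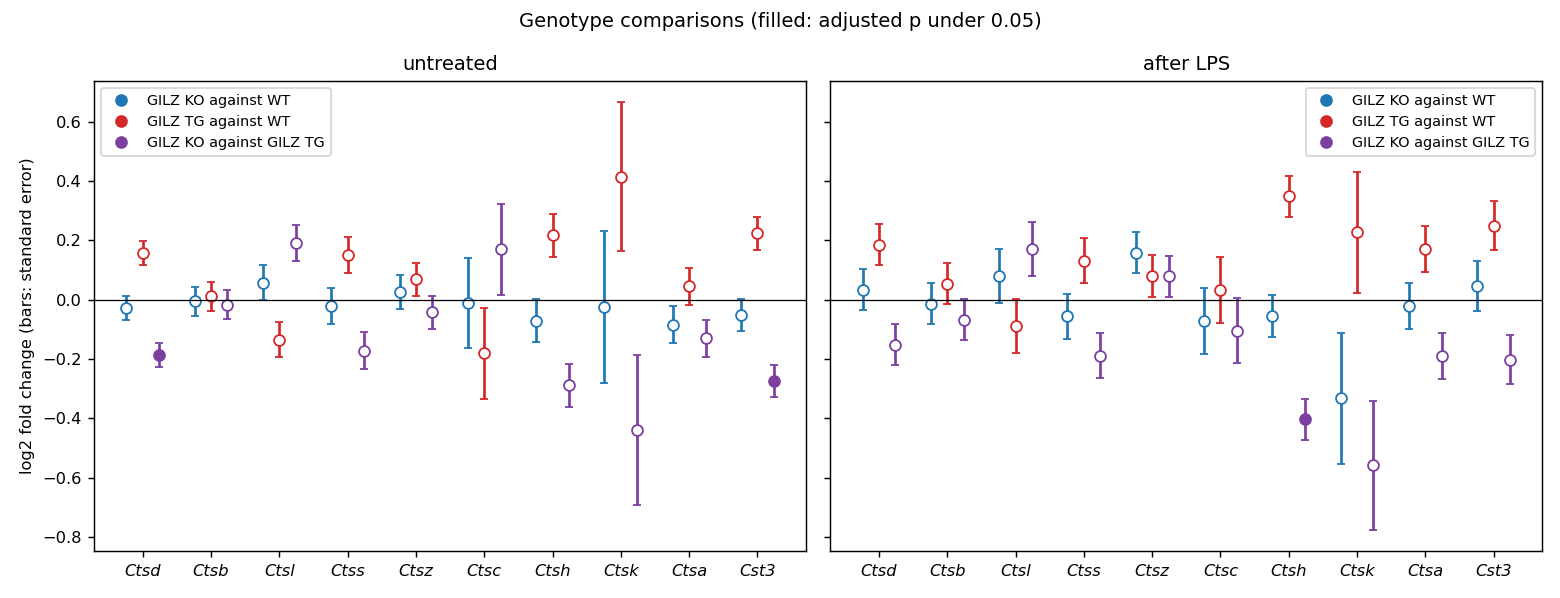
Log2 fold change with standard error of each member (x axis) in the 3 genotype comparisons, untreated (left) and after LPS (right), from edgeR on TMM-scaled counts. Filled points passed an adjusted p of 0.05, which are Ctsd and Cst3 on the left and Ctsh on the right, all for GILZ KO against GILZ TG.

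The calls were not stable to leaving out a library. Leaving out any single GILZ KO library, or GILZ TG replicate 1 or 2, took the untreated count from 2 members to 0, and leaving out GILZ TG replicate 3 gave 3 (Ctsd, Cst3 and Ctsh). Calls over all genes went the same way, from 623 to between 79 and 180 in the former fits and to 1306 of 12893 in the latter. The log2 fold changes stayed between -0.305 and -0.248 for Cst3 and between -0.20 and -0.18 for Ctsd. After LPS the call of Ctsh was lost without GILZ KO replicate 1 or 3 or GILZ TG replicate 1 or 2, at values from -0.44 to -0.37, and kept without GILZ KO replicate 2 or GILZ TG replicate 3. Calls over all genes went from 316 to between 24 and 89 where it was lost, and were 133 without GILZ KO replicate 2 and 1403 without GILZ TG replicate 3.

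Markers of other cell types were most raised in replicates 1 and 2 of GILZ TG. Untreated replicate 3 was within the range of untreated WT and GILZ KO for stromal markers. It lay above that range, by less, for neutrophil-lineage, B-lineage, osteoclast and dendritic cell markers. The 7 stromal fibroblast markers (Col1a1, Col1a2, Col3a1, Dcn, Lum, Pdgfra and Pdgfrb) summed to 101, 115 and 9.75 TPM in the untreated GILZ TG libraries and to 80.2, 109 and 10.3 TPM after LPS, against 4.88 to 21.8 TPM in the other 12 libraries. The neutrophil-lineage markers summed to 187, 482 and 68.3 TPM in untreated GILZ TG and to 23.8 to 61.2 TPM in untreated WT and GILZ KO, and the B-lineage markers to 93.6, 158 and 36.1 TPM against 31.0 to 35.5 TPM. The B-lineage markers did not move as 1 set. Of 7 markers 3 were tested between untreated GILZ KO and GILZ TG. There Igkc was called lower in GILZ KO (-5.80) but Cd79b higher (0.60, edgeR). Of the stromal markers 1 was at 0 in all untreated WT and GILZ KO libraries. Osteoclast markers had 70.9, 72.3 and 57.9 TPM against 32.5 to 54.6 TPM, dendritic cell markers 17.7, 21.1 and 10.8 TPM against 4.71 to 7.18 TPM, and T and NK cell markers at most 0.19 TPM, with at least 4 of 5 at 0 in each untreated library. Of the 6 dendritic cell markers only 2 were tested between untreated GILZ KO and GILZ TG, and Itgax alone was called (-1.63, edgeR). Ctsk was likewise highest in replicates 1 and 2, with 4.68, 6.96 and 3.58 TPM in untreated GILZ TG and 3.79, 4.29 and 2.73 TPM after LPS. WT and GILZ KO libraries had 3.14 to 4.43 TPM untreated and 2.11 to 3.37 TPM after LPS. Replicate 1 was thus only slightly above them, and Ctsk rested on 44 to 159 reads per GILZ TG library. Its difference from GILZ KO was not called (-0.44 ± 0.25, adjusted p 0.312, and -0.56 ± 0.22, adjusted p 0.187, after LPS). In bulk RNA more cells of a type and more RNA per cell cannot be told apart.

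With replicate 3 as the single GILZ TG library, 0 of 10 members were called against GILZ KO in either treatment, in a fit that takes its spread from the other groups. Only 34 of 13081 genes untreated and 34 of 12592 after LPS were called in these fits, so the count of 0 says little about the members. The log2 fold change of Ctsd untreated was then -0.195, against -0.19 with all 3 libraries, that of Cst3 was -0.22, and that of Ctsh after LPS was -0.33. After LPS that of Cst3 shrank to -0.07. Beyond these values, the part of the other cells in the differences was not tested.

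**Figure D5:**
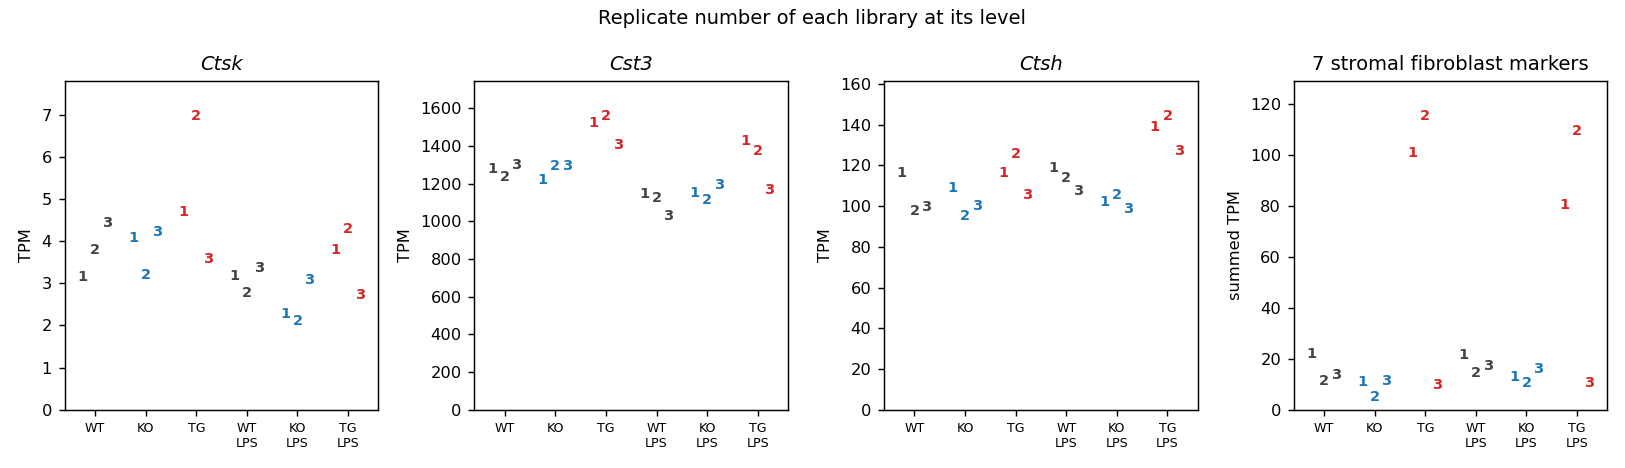
TPM of Ctsk, Cst3 and Ctsh and the summed TPM of 7 stromal fibroblast markers (y axes, from 0) in the 6 groups (x axis), with each library drawn as its replicate number. Replicates 1 and 2 of GILZ TG stand at 80.2 TPM or more in the marker sum and are the highest GILZ TG libraries of Ctsk, Cst3 and Ctsh in both treatments.

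The balance of inhibitor and proteases was set in one library at a time, which removes the scaling. Cst3 relative to the summed TPM of the 7 cysteine cathepsins was 0.107 to 0.123 in untreated WT, 0.101, 0.114 and 0.111 in GILZ KO and 0.133, 0.145 and 0.123 in GILZ TG. After LPS it was 0.118, 0.122 and 0.113 in WT, 0.122, 0.116 and 0.124 in GILZ KO and 0.143, 0.147 and 0.123 in GILZ TG. Replicates 1 and 2 of GILZ TG were above all WT and GILZ KO libraries, and replicate 3, at 0.123 in both treatments, lay at the upper end of their range. The ratio of Ctss to Ctsl, the main invariant chain proteases of different cells, was 0.406 to 0.416 in untreated WT, 0.381 to 0.402 in GILZ KO and 0.474 to 0.527 in GILZ TG, with GILZ TG replicate 3 (0.504) within the high range. After LPS it was 0.672 to 0.712 in WT, 0.624 to 0.629 in GILZ KO and 0.735 to 0.853 in GILZ TG. For this ratio the 3 genotypes did not overlap in either treatment. The ratio of Ctsc to Ctsl did overlap, with 0.0267 to 0.0386 in untreated WT, 0.0300 to 0.0387 in GILZ KO and 0.0280 to 0.0377 in GILZ TG. After LPS it was 0.143 to 0.182, 0.136 to 0.158 and 0.143 to 0.207. All these ratios are given without a test. How often ratios of other gene pairs keep the genotypes apart was not examined.

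Some listed neighbours were called between genotypes. Between untreated GILZ KO and GILZ TG 1 of 9 partner enzymes, 1 of 11 sorting genes and 1 of 9 substrates and users were called. So was 1 of 8 tested check genes, beside 4.94% of all genes. After LPS 1 of 2 tested cystatins and 1 of 9 substrates and users were called there, beside 2.6%. In GILZ TG against WT 1 of 9 partner enzymes was called in each treatment, beside 0.642% untreated and 0.46% after LPS. Psap, which encodes the saposin precursor that CTSD cleaves, was called higher in GILZ TG than in WT, with 3646, 3903 and 3670 against 2967, 3040 and 2854 TPM untreated (0.33 ± 0.04, adjusted p 0.00960) and 2753, 3003 and 2632 against 2134, 2179 and 2034 TPM after LPS (0.40 ± 0.07, adjusted p 0.0357). It was lower in untreated GILZ KO than in GILZ TG (-0.21 ± 0.04, adjusted p 0.0247). Sort1, the sorting receptor sortilin, was higher in untreated GILZ KO, with 12.2, 12.1 and 12.1 TPM against 6.89, 7.91 and 8.09 TPM in GILZ TG (0.58 ± 0.07, adjusted p 0.00491). The TLR chaperone Unc93b1 was lower there (-0.23 ± 0.06, adjusted p 0.0498), and the interferon-induced Ifit1 was higher, with 16.9, 9.95 and 9.42 against 4.31, 5.04 and 6.50 TPM (1.16 ± 0.23, adjusted p 0.0230). After LPS Cst7 had 29.7, 33.2 and 34.0 TPM in GILZ KO and 44.2, 52.5 and 47.3 TPM in GILZ TG (-0.58 ± 0.10, adjusted p 0.0177), and Tlr9 was lower as well (-0.88 ± 0.16, adjusted p 0.0195). With limma on log2(TPM + 1) Psap after LPS (adjusted p 0.0605), Psap in untreated GILZ KO against GILZ TG (0.0970) and Unc93b1 (0.105) were not called. No other gene of the 7 lists, the 4 MiT/TFE factors included, was called by edgeR in the 6 genotype comparisons.

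For the members called between genotypes, the genes with the most similar pattern over the 18 libraries were sought among 9414 genes of at least 5 TPM on average, by the mean absolute difference of centred log2(TPM + 1). They were Neurl3 (0.041), Adh5 (0.042) and Scp2 (0.046) for Ctsd, where the median gene was at 0.250. For Cst3 they were Capg (0.061), Necap2 (0.066) and Pnpla2 (0.067), against a median of 0.327. For Ctsh they were Pstpip1 (0.090), Slc25a28 (0.092) and Cdyl (0.092), against a median of 0.430. The distances span untreated and LPS libraries, and the part of LPS in these patterns was not separated from that of genotype.

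The members lie on 6 chromosomes of GRCm38 (gene spans of the GENCODE M21 annotation). Cst3 (chr2:148871722-148875692), Ctsa (chr2:164832873-164841032) and Ctsz (chr2:174427493-174439039) are on chromosome 2, and Ctsd (chr7:142375911-142388038) and Ctsc (chr7:88278085-88310888) on chromosome 7. Ctsk (chr3:95499256-95509362) and Ctss (chr3:95526786-95556403) are neighbours on chromosome 3 with 17423 bases between them, with at least 1597 TPM for Ctss and at most 4.43 TPM for Ctsk in untreated WT. Ctsb is at chr14:63122462-63145923, Ctsh at chr9:90054152-90076089 and Ctsl at chr13:64359337-64370890.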

How the data were processed

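RNA of 18 BMM libraries was sequenced by the study after poly(A) selection and strand-specific library preparation, and quantified against GRCm38 with the grape-nf pipeline. The deposited gene tables hold the expected counts and the TPM values that the authors obtained per library and gene. The 9 deposited comparison tables hold the authors' fold changes and p-values and were used only to pair identifiers with symbols. The submitters' processing notes name FastQC 0.11.2 and DESeq2 1.40.2. After removal of 14 blank end rows, 38887 genes remained per table, with 14583055 to 38557029 reads (median 24450362). Expected counts were rounded, filtered with filterByExpr, scaled by TMM and tested with edgeR 4.0.16 (quasi-likelihood, R 4.3.3), with p-values adjusted after Benjamini and Hochberg over all genes tested and a threshold of 0.05. Genotypes were compared in a fit of the 9 libraries of a treatment, LPS responses and their differences in a fit of all 18. As alternatives, limma 3.58.1 on log2(TPM + 1) or log2(TPM + 0.1), DESeq2 1.42.0, RLE size factors, no filter, other sets of libraries, a replicate block and leaving out each library were run. The fits were tested on simulated data. Tables and plots were made with Python 3.11.15, pandas 2.3.3 and matplotlib 3.10.9.

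Members and lists were chosen with earlier results of these data known. Named besides the members are, from each list, the genes called in a genotype comparison (at most 5), the 3 largest called LPS changes per direction, Tsc22d3, Lyz2, and the 3 genes with the most similar pattern for each member called between genotypes. Values after ± are SE. Replicates of a group were separate preparations. The deviations of same-numbered untreated and LPS libraries from their group means correlated in all 3 GILZ TG pairs (0.266, 0.397 and 0.605). The correlation passed 0.1 in 1 of 3 pairs in WT and 0 of 3 in GILZ KO, and in 2 of 18 pairs of genotypes. Deviations from a mean of 3 libraries are not independent, and whether the numbers pair the libraries was not established. The fits were made without the block, and the block fits are alternatives.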

Additional observations from a re-analysis of the deposited data

Results flagged for a closer look

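The LPS response of Ifit1, an interferon-induced check gene, differed between GILZ KO and GILZ TG in a test of the difference itself, with -1.47 ± 0.24 on the log2 scale for GILZ KO minus GILZ TG (adjusted p 0.0237, edgeR). Of all 13169 genes tested 16 were called there (0.121%). The call was not stable to leaving out a library. Without GILZ KO LPS replicate 3 or GILZ TG LPS replicate 2 the test called 0 genes. Without GILZ KO LPS replicate 1 it called 0 genes lower, so Ifit1 was lost there too. Untreated Ifit1 had 16.9, 9.95 and 9.42 TPM in GILZ KO and 4.31, 5.04 and 6.50 TPM in GILZ TG, and after LPS 2005, 2321 and 2068 TPM against 2573, 2597 and 2596 TPM. No member of the cathepsin set differed in this way.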

How the results depend on the processing

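The genotype counts were small and moved with the method and the libraries. For untreated GILZ KO against GILZ TG, DESeq2 called 4 members, limma 0 with either pseudocount, and the fit with GILZ TG replicate 3 alone 0, with 0 to 3 when single libraries were left out. Without the filter and with all 18 libraries in one fit, Cst3 and Ctsh were called but not Ctsd. For GILZ TG against WT, untreated, DESeq2 called 2, with 0 to 2 when libraries were left out. After LPS the count was 1 without the filter, 1 with DESeq2, 1 with all 18 libraries in one fit and 0 to 2 when libraries were left out. For GILZ KO against GILZ TG after LPS it was 0 with GILZ TG replicate 3 alone and 0 to 1 otherwise. In GILZ TG 6 to 7 members were called higher after LPS when single libraries were left out, with Ctsa lost without untreated replicate 3 or LPS replicate 2, and also without the filter or with only the 6 libraries of GILZ TG. The causes were not tested.

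Per TPM, limma with a pseudocount of 1 or 0.1 called 2, 2 and 3 members higher and 5, 5 and 5 lower after LPS in WT, GILZ KO and GILZ TG, and turned these LPS log2 fold changes negative, as the shift of the median of all genes implies. For WT, GILZ KO and GILZ TG in this order they were -0.61, -0.595 and -0.52 for Ctsa (-0.61, -0.596 and -0.52 with 0.1), -0.34, -0.38 and -0.31 for Ctsb, -0.57, -0.55 and -0.56 for Ctsd, -0.22, -0.475 and -0.38 for Ctsk (-0.27, -0.61 and -0.45 with 0.1), -0.21, -0.14 and -0.18 for Cst3, and -0.635 for Ctsl in GILZ TG. Values near 0 also changed sign. Ctsk in GILZ KO was -0.019 without the filter, -0.006 with only its 6 libraries and -0.185 to 0.101 when libraries were left out. Ctsl in GILZ TG was -0.023, -0.016 and -0.088 to 0.086. The ranges were -0.006 to 0.086 for Ctsd in WT, -0.086 to 0.004 for Ctsl in WT and -0.06 to 0.419 for Ctsk in GILZ TG.

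With the replicate block, 3 members (Ctsd, Cst3 and Ctsh) were called between untreated GILZ KO and GILZ TG and 1 (Ctsh) after LPS. LPS calls in GILZ KO went from 6 to 7 with Ctsa, and the 7 LPS calls in GILZ TG were kept. In LPS response 0 members differed. The near-0 LPS values were -0.006 for Ctsk in GILZ KO and -0.002 for Ctsl in GILZ TG. Of 9 untreated libraries 5 correlated best with the LPS library of their own number, out of only 3 LPS libraries of the same genotype. Whether 5 is more than unpaired libraries would give was not tested.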
